A study of Mus musculus with 4 samples.

Results

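The genes described here are 34 markers of lymphocyte identity, 20 of T cells, 9 of B cells and 5 of natural killer (NK) cells, out of 24391 genes counted in mouse lung tumours. The rule names them by gene symbol and uses no measured value, although the set was proposed with earlier results of these data known. All 34 were found in the files and passed the filter on low counts. RNA was sequenced from 4 tumour samples, 2 in each group. The K-Ras tumours came from mice carrying K-Ras LSL-G12D, an oncogenic allele kept silent by a lox-stop-lox cassette until Cre recombinase removes it. The K-Ras Mll4-/- tumours came from mice that carried the same allele together with Mll4 fl/fl, a floxed histone methyltransferase gene now named Kmt2d. Both groups therefore share the K-Ras allele and, by design, Cre. The Cre driver, its delivery, the age of the mice and whether tumours were pooled are not given in the sources used here. Tumours were dissociated with enzymes, red cells were lysed, and CD45-bearing cells were depleted before RNA was extracted. CD45 is the surface phosphatase of all nucleated blood cells, so the lymphocyte transcripts described below are those that were still measured after a step meant to remove their cells.

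T cells recognise antigen through a receptor that signals through the CD3 chains, the kinases LCK and ZAP-70 and the adaptor LAT. CD8 and CD4 are co-receptors that mark cytotoxic and helper cells, and FOXP3 defines regulatory T cells, which restrain immune responses and are known to gather in K-Ras-driven lung tumours. B cells signal through CD79A and CD79B under the control of PAX5, and mature into antibody-secreting plasma cells. NK cells kill without an antigen receptor and depend on the transcription factors T-bet and EOMES.

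Reads assigned to genes numbered 29096295 and 36677987 for K-Ras tumours, and 26683033 and 32887250 for K-Ras Mll4-/- tumours. At that depth 3 reads, the floor used here for a detected transcript, correspond to 0.0818 to 0.112 counts per 1000000 gene-assigned reads (CPM), counting error only. The labels do not say that replicates came from separate mice, so p-values measure only the spread between these samples. The targeted gene Kmt2d was at 395 and 526 CPM in the K-Ras samples and at 367 and 317 CPM in the K-Ras Mll4-/- samples (log2 fold change -0.43, SE 0.21, edgeR quasi-likelihood adjusted p = 0.302). Whole-gene counts do not resolve the floxed exons, so the loss of Mll4 is taken from the labels. Epithelial RNA was present in every sample, with Epcam at 101 to 233 CPM and the surfactant gene Sftpc at 5748 to 10750 CPM. The CD45 gene itself, Ptprc, was at 275 and 143 CPM in the K-Ras samples and at 269 and 171 CPM in the K-Ras Mll4-/- samples. CD45-bearing cells were thus still represented in the RNA of all 4 samples, and the groups overlapped. K-Ras replicate 1 stood apart in Marco, a macrophage scavenger receptor (211 CPM against 3.38 to 14.6 CPM), and in neutrophil genes, but not in Ptprc. Its 5 macrophage markers (Cd68, Csf1r, Adgre1, Marco and Itgax) summed to 757 CPM, against 151 to 493 CPM in the other samples. Without Marco they summed to 546 CPM, against 479 CPM in K-Ras Mll4-/- replicate 1 and 142 and 206 CPM in the others. The general leukocyte genes Ptprc, Laptm5 and Coro1a together were highest in K-Ras Mll4-/- replicate 1 (667 CPM, against 620 CPM in K-Ras replicate 1). In K-Ras replicate 1, S100a8 and S100a9, which encode neutrophil calprotectin, were at 69.2 and 79.2 CPM against at most 17.9 and 23.3 CPM elsewhere. Results that rest on K-Ras replicate 1 are given with and without it.

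Promoter sequences are shown for 4 members on which the results turn. Cd3e stands for the general T cell content, Cd8a and Ctla4 for the T cell genes whose groups were farthest apart in either direction, and Pou2af1 for the B-lineage gene with the lowest p-value. Each line holds the 250 bases before the RefSeq start site on GRCm38.p6, read 5′ to 3′ on the gene's strand. They lie at chr9:45009612-45009861 on the minus strand (Cd3e), and on the plus strand at chr6:71373177-71373426 (Cd8a), chr1:60908775-60909024 (Ctla4) and chr9:51213440-51213689 (Pou2af1). Capitals mark the core letters AGGAAG (ETS family), TGTGGT (RUNX family), TGACGT (cAMP response element) and ATGCAAAT (the octamer bound by the POU factors that Pou2af1 assists), searched on both strands.
Cd3e: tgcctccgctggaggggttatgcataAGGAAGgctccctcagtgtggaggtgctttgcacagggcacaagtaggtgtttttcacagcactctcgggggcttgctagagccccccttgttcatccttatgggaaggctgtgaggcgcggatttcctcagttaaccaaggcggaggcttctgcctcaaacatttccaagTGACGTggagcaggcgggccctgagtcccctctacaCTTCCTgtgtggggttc
Cd8a: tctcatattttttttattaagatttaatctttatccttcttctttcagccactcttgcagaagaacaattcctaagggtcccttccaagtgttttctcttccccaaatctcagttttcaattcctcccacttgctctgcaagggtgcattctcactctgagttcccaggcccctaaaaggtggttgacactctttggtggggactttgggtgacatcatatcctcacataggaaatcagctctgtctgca
Ctla4: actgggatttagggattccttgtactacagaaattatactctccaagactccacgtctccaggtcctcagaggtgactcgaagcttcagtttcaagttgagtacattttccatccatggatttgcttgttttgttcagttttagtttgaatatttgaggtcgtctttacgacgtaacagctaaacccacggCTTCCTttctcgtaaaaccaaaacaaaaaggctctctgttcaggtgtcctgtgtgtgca
Pou2af1: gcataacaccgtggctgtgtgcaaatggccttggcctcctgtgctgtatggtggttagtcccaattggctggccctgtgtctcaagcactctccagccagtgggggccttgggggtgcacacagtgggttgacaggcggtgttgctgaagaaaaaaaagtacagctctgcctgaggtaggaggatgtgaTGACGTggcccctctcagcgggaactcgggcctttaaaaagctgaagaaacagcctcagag
The ETS letters were found at 2 places before Cd3e and 1 before Ctla4, and the cAMP-element letters once each before Cd3e and Pou2af1, with no overlap between them. None of the 4 motifs was matched in this stretch before Cd8a. Promoter sequences were matched for 25 of the 34 members. The ETS letters were in 15 of these (60.0%), against 29.5% of 32851 mouse promoter windows of the same length. The RUNX letters were in 6 (24.0%, against 14.0%), the cAMP-element letters in 3 (12.0%, against 6.47%) and the octamer in 0 (against 1.60%). A member was counted if any of its windows held the letters, whereas the background was counted over single windows. A member with several windows had more places to match, so these shares are not like for like. These matches describe letters only, and no binding was measured.

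Lymphocyte transcripts were measured in every sample, at low levels. Each of the 34 genes had between 36 and 2204 reads in each sample, and together they took 0.0577% and 0.0277% of gene-assigned reads in the K-Ras samples and 0.0372% and 0.0346% in the K-Ras Mll4-/- samples. Divided by the length of the longest coding transcript, the highest mean levels over the 4 samples were those of Cd2, an adhesion receptor of T and NK cells (20.8 ± 9.21 CPM per kilobase, SD, n = 4), Il7r, the interleukin-7 receptor of resting T cells (14.3 ± 4.27), and Cd79b, the B cell receptor signalling chain (12.6 ± 2.29). Neighbours in this order differed by less than the larger of their SDs, except Ncr1 above Klrb1c, Tbx21 above Eomes and Eomes above Pax5. On that scale Cd2 stood at the 77.1th percentile of the 14394 tested genes with a known length. The lowest were Pax5, the master regulator of the B lineage (0.409 ± 0.0801 CPM per kilobase), and Eomes (0.625 ± 0.103), at the 7.46th and 10.6th percentiles. Read counts per gene depend on the authors' gene models, so this order is approximate.

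**Figure D1:**
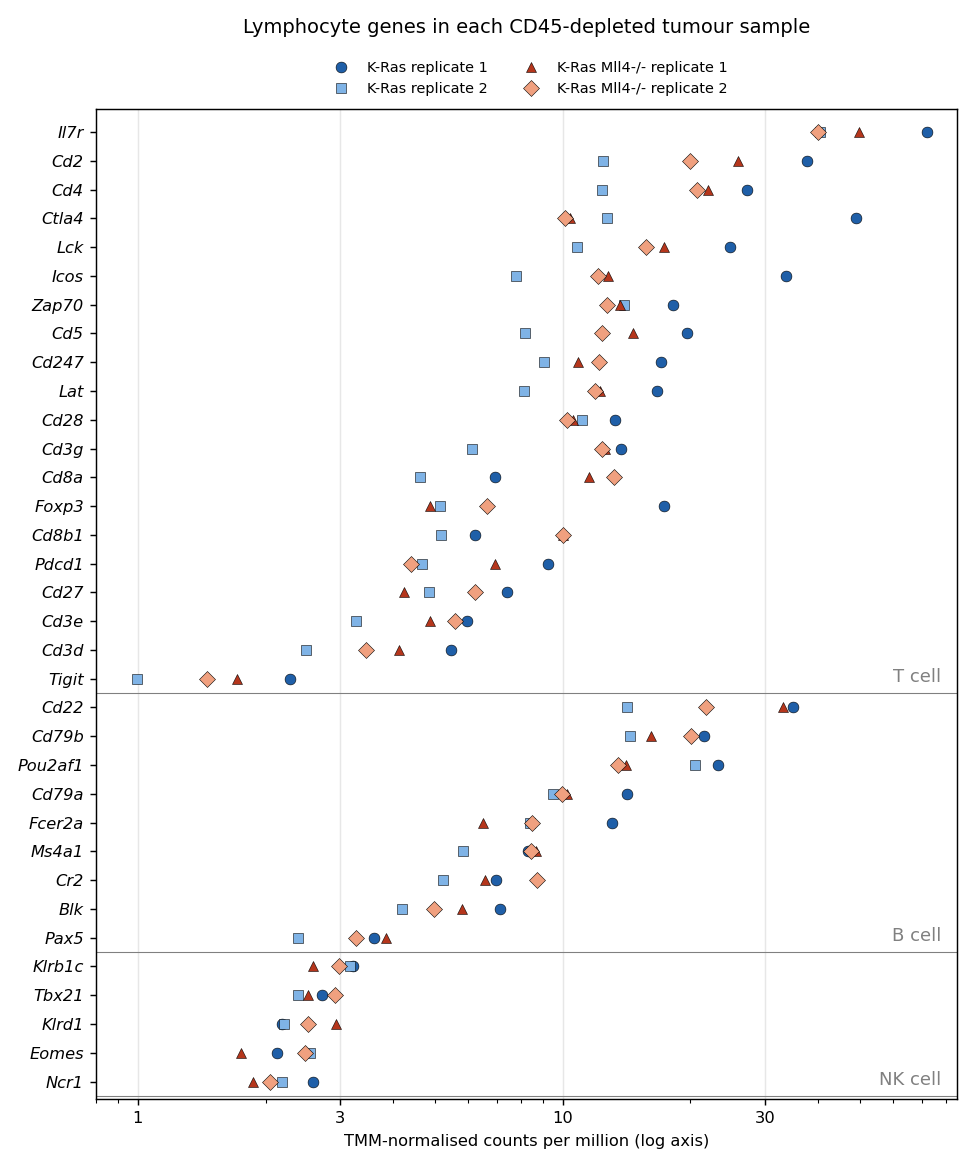
Level of each of the 34 lymphocyte genes in each sample, as TMM-normalised CPM on a log axis; each marker is 1 sample and genes are ordered by mean level within T, B and NK cells. K-Ras replicate 1 holds the highest value for 18 of the 20 T cell genes and K-Ras replicate 2 the lowest for 13.

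Most members had their highest value in 1 K-Ras sample, and most had their lowest value in the other, but these were not always the same members. K-Ras replicate 1 had the highest level of 26 of the 34 genes, and K-Ras replicate 2 had the lowest level of 21. Over the 16001 tested genes these samples were highest for 24.7% and lowest for 27%. The K-Ras Mll4-/- samples were usually close to each other. Both lay between the K-Ras samples for some members, such as the CD3 chains, but not for most. The fold between the samples of a group had a median over the 34 genes of 1.63 in the K-Ras group, with a maximum of 4.32, and of 1.15 in the K-Ras Mll4-/- group, with a maximum of 1.57. Over all tested genes those medians were 1.22 and 1.15. In CPM, the fold between the K-Ras samples was thus larger for the median lymphocyte gene than for the median tested gene. Folds of single genes were not computed per read of Ptprc, and only summed levels are given on that scale below.

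Summed over the 20 genes, T cell transcripts were at 404 and 184 CPM in the K-Ras samples and at 261 and 241 CPM in the K-Ras Mll4-/- samples. Both K-Ras Mll4-/- samples fell between the K-Ras samples, and the group means were 294 ± 155 and 251 ± 14.1 CPM (SD, n = 2 each). Without K-Ras replicate 1 the log2 ratio of K-Ras Mll4-/- to K-Ras moved from -0.22 to 0.45, and without K-Ras replicate 2 to -0.68. The 9 B cell genes summed to 133 and 84.7 CPM in the K-Ras samples and to 105 and 99.2 CPM in the K-Ras Mll4-/- samples, again inside the K-Ras range. The log2 ratio of the B cell sum was -0.09, and 0.27 without K-Ras replicate 1. The 5 NK cell genes summed to 12.8 and 12.5 CPM against 11.7 and 12.9 CPM, so NK transcripts varied little between any of the samples. In bulk RNA, fewer cells of a type and less RNA per cell cannot be told apart.

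Set against Ptprc, the groups again overlapped, but the spread within them turned round. All 34 genes together had 2000 and 1969 reads per 1000 Ptprc reads in the K-Ras samples (mean 1984 ± 21.9, SD, n = 2) and 1405 and 2071 in the K-Ras Mll4-/- samples (1738 ± 471). On this scale K-Ras Mll4-/- replicate 1 was lowest and the K-Ras samples were close. The T cell genes had 1470 and 1289 reads per 1000 Ptprc reads in the K-Ras samples and 972 and 1414 in the K-Ras Mll4-/- samples. B cell genes had 484 and 593 reads per 1000 Ptprc reads in K-Ras tumours and 390 and 581 in K-Ras Mll4-/- tumours. NK cell genes had 46.7 and 87.4 against 43.3 and 75.8. On this scale the samples numbered 1 had fewer B and NK cell reads than those numbered 2 in both groups, and their summed macrophage markers were also higher (757 and 493 CPM, against 151 and 210 CPM).

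**Figure D2:**
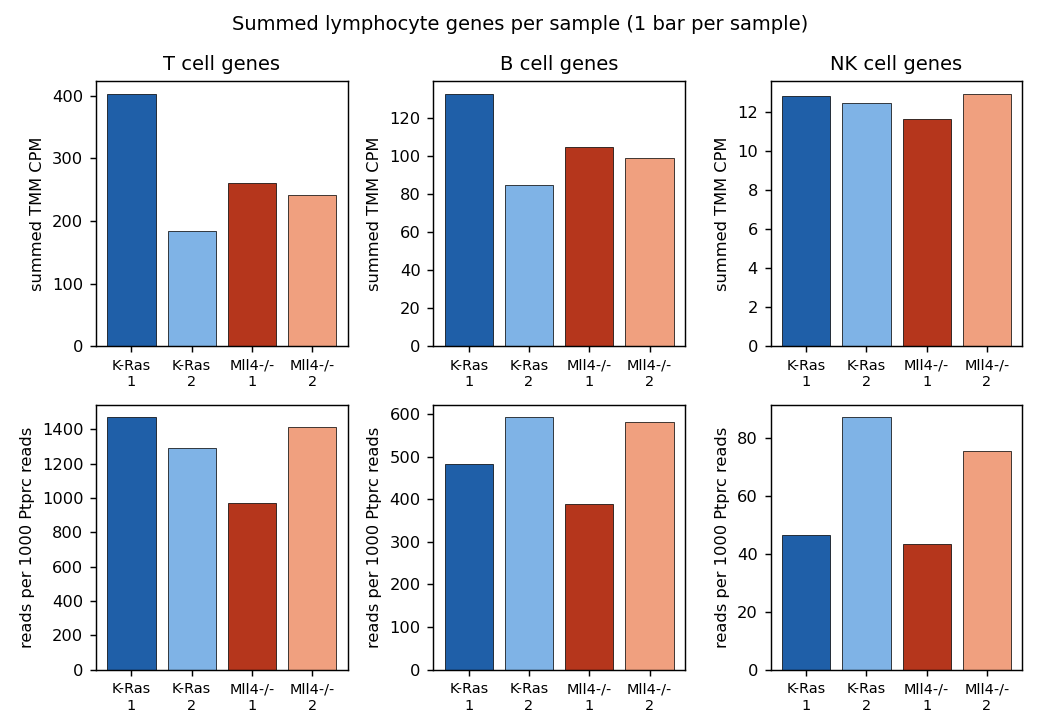
Summed T, B and NK cell genes in each sample, 1 bar per sample: the upper row gives TMM-normalised CPM and the lower row reads per 1000 reads of Ptprc. In the upper row the K-Ras samples enclose both K-Ras Mll4-/- samples for T cell genes (404 and 184 against 261 and 241) and B cell genes.

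Across all genes, 6 of 16001 were called at an edgeR quasi-likelihood adjusted p under 0.05 (0.0375%), and none of the 34 lymphocyte genes was among them. The adjusted p-values of the members ran from 0.166 to 0.981. At an unadjusted p under 0.05 there were 3 members, Cd8a and Cd8b1 with higher and Pou2af1 with lower values in K-Ras Mll4-/- tumours, against 11.4% and 10.4% of all tested genes in those directions. DESeq2 called 1 member, Cd8a, as higher, against 5.23% of the genes it tested called higher and 10.4% called in either direction. No member was called by the edgeR likelihood ratio test (9.39% of all genes), with a replicate block (1.36%) or by limma-voom (0%). None was called with other scalings (0.0312% to 0.0437%), other count filters (0.0266% and 0.221%), a fit without robust estimation (0.0437%), or single samples left out (0% to 3.2%). Both K-Ras Mll4-/- samples were above both K-Ras samples for 4 members, against 29.9% of all tested genes, and below them for 6, against 28.5%. The shares of members, at 4 and 6 of 34, were under those backgrounds. The median log2 fold change was -0.12 over the T cell genes, 0.01 over the B cell genes and -0.14 over the NK cell genes, beside -0.01 over all tested genes. Those medians turned with the sample left out. For T cell genes the median was 0.61 without K-Ras replicate 1 and -0.54 without K-Ras replicate 2.

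**Figure D3:**
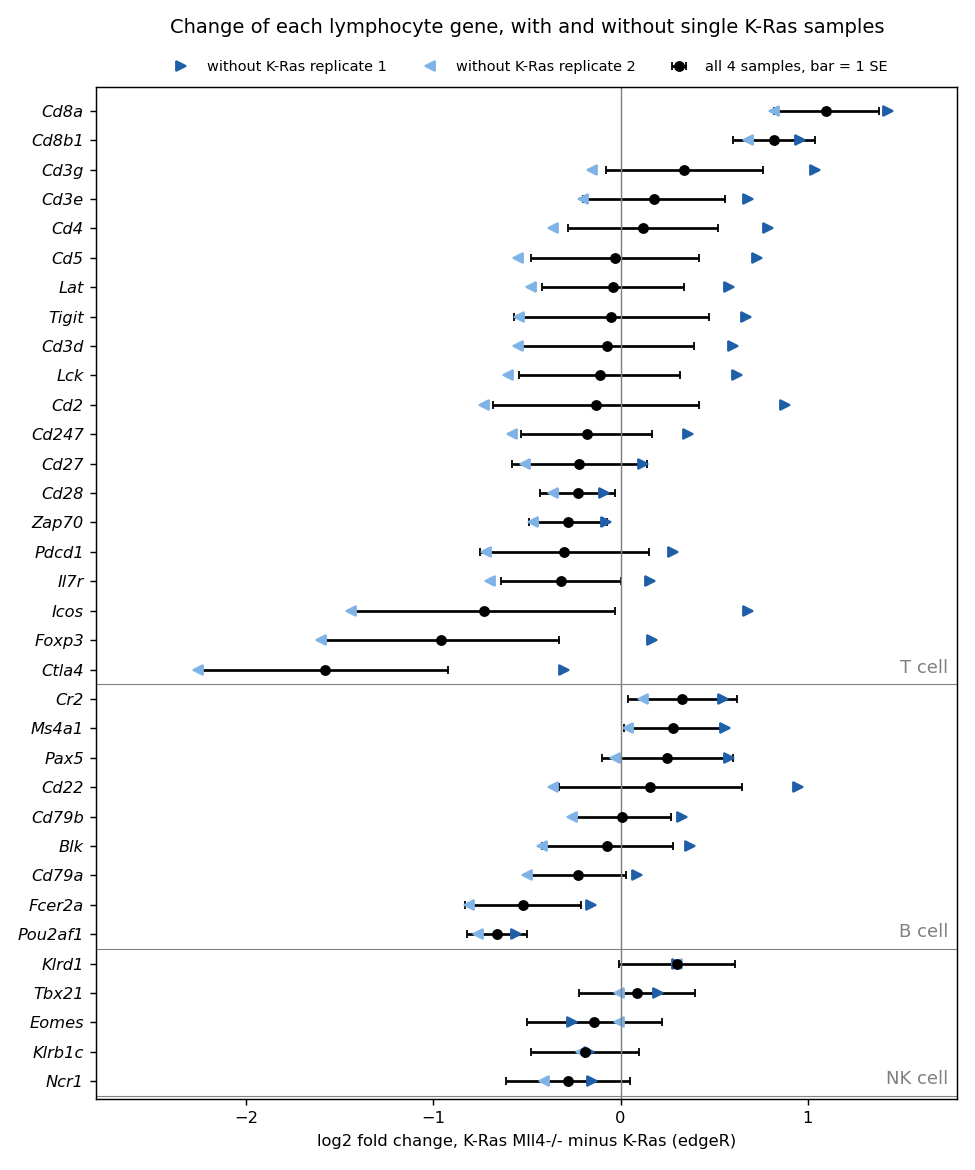
Log2 fold change of each gene, K-Ras Mll4-/- minus K-Ras, from edgeR; black points with bars give all 4 samples with 1 SE, and triangles the same fit without K-Ras replicate 1 or 2. Cd8a and Cd8b1 stay right of 0 and Pou2af1 left of 0 in all these fits, whereas Foxp3 and Icos change side.

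The CD3 chains, which every mature T cell carries as part of its antigen receptor, gave no difference beyond the spread. Cd3e was at 5.95 and 3.27 CPM in the K-Ras samples and at 4.88 and 5.59 CPM in the K-Ras Mll4-/- samples. Its log2 fold change was 0.18 (SE 0.38, edgeR adjusted p = 0.800). Cd3g was at 13.7 and 6.12 CPM against 12.6 and 12.4 CPM, and Cd3d at 5.46 and 2.49 CPM against 4.11 and 3.44 CPM. For all 3 chains K-Ras replicate 2 was lowest and K-Ras replicate 1 highest. Cd247, the signalling zeta chain, was at 17.1 and 9.05 CPM against 10.9 and 12.2 CPM, with the same order of the K-Ras samples.

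The proximal signalling genes varied in the same way. Lck, the kinase bound to the co-receptors, was at 24.8 and 10.8 CPM in K-Ras tumours and at 17.3 and 15.7 CPM in K-Ras Mll4-/- tumours. Lat, the adaptor that assembles the signalling complex, was at 16.7 and 8.11 CPM against 12.2 and 12.0 CPM. Zap70, the kinase recruited to the phosphorylated chains, was narrower, at 18.2 and 14.0 CPM against 13.7 and 12.7 CPM. Both K-Ras Mll4-/- samples lay below both K-Ras samples for Zap70, by a log2 fold change of -0.28 that did not pass the test (SE 0.21, edgeR adjusted p = 0.458). The surface receptors Cd2 and Cd5, the latter a brake on receptor signalling, spread by 3.01-fold and 2.40-fold between the K-Ras samples. Their log2 fold changes were -0.13 (SE 0.55) and -0.03 (SE 0.45).

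The co-receptors parted from this pattern. Cd4 followed the CD3 chains, at 27.1 and 12.4 CPM in the K-Ras samples and at 22.1 and 20.7 CPM in the K-Ras Mll4-/- samples. Cd8a, one chain of the cytotoxic co-receptor, was at 6.93 and 4.62 CPM in the K-Ras samples and at 11.5 and 13.2 CPM in the K-Ras Mll4-/- samples. Cd8b1, the other chain, was at 6.21 and 5.18 CPM against 10.1 and 10.1 CPM. In reads, Cd8a had 212 and 167 against 303 and 426, and Cd8b1 had 190 and 187 against 264 and 324. For both CD8 chains the groups did not overlap, and both K-Ras Mll4-/- samples were above K-Ras replicate 1, the sample with the highest T cell sum in CPM.

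The mean of Cd8a was 5.78 ± 1.64 CPM in K-Ras and 12.4 ± 1.19 CPM in K-Ras Mll4-/- tumours (SD, n = 2 each). Its log2 fold change of 1.10 (SE 0.28) had an unadjusted p of 0.0132 and was not called by the edgeR quasi-likelihood test (adjusted p = 0.170). DESeq2 called it, with a log2 fold change of 1.09 (SE 0.37, adjusted p = 0.0335), and the edgeR likelihood ratio test gave an adjusted p of 0.0512. Over the alternative fits the adjusted p for Cd8a ran from 0.0335 to 0.772, and its log2 fold change from 0.82 to 1.43. Cd8b1 had a log2 fold change of 0.82 ± 0.22 (SE; adjusted p = 0.177, edgeR), between 0.68 and 0.96 when single samples were left out. Cd8a is also carried by a subset of dendritic cells, whereas Cd8b1 is largely restricted to T cells. Cd8b1 had 89.6 and 112 reads per 100 Cd8a reads in K-Ras samples and 87.1 and 76.1 in K-Ras Mll4-/- samples. Both K-Ras values were above both others, and the 95% counting intervals of the samples numbered 2 did not meet (90.4 to 139 and 65.6 to 88.1).

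Foxp3, Ctla4 and Icos had 1 high sample, K-Ras replicate 1. Foxp3 was at 17.3 CPM in that sample, at 5.15 CPM in K-Ras replicate 2, and at 4.88 and 6.64 CPM in the K-Ras Mll4-/- samples. Ctla4, an inhibitory receptor that regulatory T cells express constantly, was at 49.0 CPM in K-Ras replicate 1, 12.7 CPM in K-Ras replicate 2, and 10.4 and 10.2 CPM in the K-Ras Mll4-/- samples. Icos, a costimulatory receptor of activated T cells, was at 33.6 and 7.78 CPM against 12.8 and 12.1 CPM. K-Ras replicate 1 was highest for all 3, by 3.36-fold to 4.32-fold over the other K-Ras sample.

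None of the 3 was called. Ctla4 differed by a log2 fold change of -1.58 with an SE of 0.66 (adjusted p = 0.257, edgeR), which was -0.30 without K-Ras replicate 1 and -2.26 without K-Ras replicate 2. Foxp3 had a log2 fold change of -0.96 ± 0.63 (SE; adjusted p = 0.418, edgeR), which turned to 0.17 without K-Ras replicate 1. Icos had a log2 fold change of -0.73 ± 0.70 (SE; adjusted p = 0.574, edgeR), which turned to 0.68. Beside these values, 4 of 5 macrophage markers (all but Adgre1, which was highest in K-Ras Mll4-/- replicate 1) and both neutrophil markers were also highest in K-Ras replicate 1, and their part in the result was not tested. Cd28, the activating counterpart of Ctla4 encoded next to it on chromosome 1, differed by only 1.20-fold between the K-Ras samples. It was at 13.3 and 11.1 CPM against 10.6 and 10.2 CPM.

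Because total T cell RNA differed between the K-Ras samples, reads were also set against Cd4 within each sample, a scale chosen, like the other ratios of reads, after the values were seen. Cd8a had 25.6 and 37.4 reads per 100 Cd4 reads in the K-Ras samples (95% exact binomial-based intervals 21.9 to 29.8 and 31.1 to 44.7). It had 52.3 and 63.8 in the K-Ras Mll4-/- samples (45.4 to 60.2 and 56.3 to 72.1), so the intervals of the groups did not meet. These intervals cover counting error only, since reads without molecular identifiers are not independent molecules. Cd8b1 had 22.9 and 41.8 reads per 100 Cd4 reads in K-Ras and 45.6 and 48.5 in K-Ras Mll4-/- samples, where the interval of K-Ras replicate 2 (35.1 to 49.7) overlapped those of the K-Ras Mll4-/- samples.

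Foxp3 had 63.8 and 41.6 reads per 100 Cd4 reads in the K-Ras samples and 22.1 and 32.0 in the K-Ras Mll4-/- samples. Both K-Ras values lay above both others on this scale, although the intervals of K-Ras replicate 2 (34.9 to 49.5) and K-Ras Mll4-/- replicate 2 (27.3 to 37.4) overlapped. Ctla4 had 181 and 103 reads per 100 Cd4 reads in K-Ras and 47.3 and 49.0 in K-Ras Mll4-/- samples, with no overlap of intervals. Icos had 124 and 62.9 against 58.0 and 58.5, and the interval of K-Ras replicate 2 (54.0 to 73.1) held both K-Ras Mll4-/- values. The number of Cd8a reads per 100 Foxp3 reads was 40.1 and 89.8 in K-Ras samples and 237 and 199 in K-Ras Mll4-/- samples. With 2 samples a group, an exact permutation test of such a ratio cannot give a two-sided p below 0.333.

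**Figure D4:**
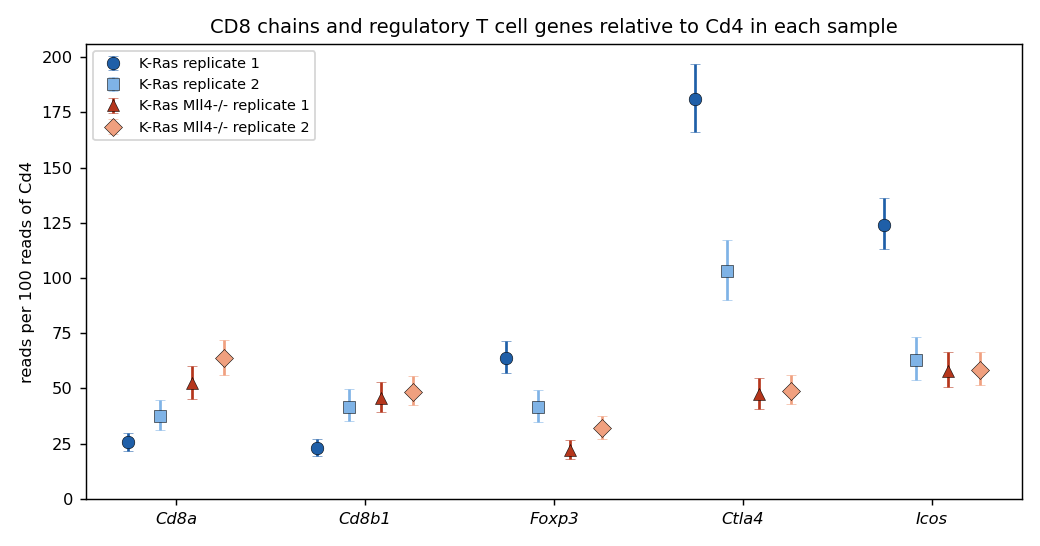
Reads of Cd8a, Cd8b1, Foxp3, Ctla4 and Icos per 100 reads of Cd4 in each sample; each marker is 1 sample and bars are 95% intervals for counting error. Cd8a lies at 25.6 and 37.4 in the K-Ras samples and at 52.3 and 63.8 in the K-Ras Mll4-/- samples, and Ctla4 at 181 and 103 against 47.3 and 49.0.

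Measured per 100 reads of the 3 CD3 chains together, another scale chosen after the values were seen, most T cell members had lower ratios in both K-Ras Mll4-/- samples. Of the 17 other T cell genes, both K-Ras Mll4-/- samples were below both K-Ras samples for 14 and above for 2, and 1 overlapped. Over all other tested genes on this scale, 24.9% were below and 4.8% above. In the list of 32 T cell genes outside the members, 15 were below, 3 above and 14 overlapped. The 2 members above were Cd8a (27.6 and 38.9 in K-Ras, 53.4 and 61.7 in K-Ras Mll4-/-) and Cd8b1 (24.7 and 43.6, against 46.6 and 46.9). The Cd4 values nearly met, at 108 and 104 against 102 and 96.7. All 17 ratios of a sample share 1 denominator, so they do not count as separate observations. The chains in that denominator also differed in order. Cd3g was at 54.62 and 51.52 in K-Ras and 58.38 and 57.89 in K-Ras Mll4-/- samples. Cd3d was at 21.72 and 20.98 against 19.05 and 16.06, and Cd3e overlapped. The counts may therefore depend on the chain used, which was not tested.

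The remaining T cell members gave small differences. Il7r, with the most reads of all members, was at 72.1 and 40.3 CPM in K-Ras and 50.0 and 39.9 CPM in K-Ras Mll4-/- tumours. Pdcd1, the inhibitory receptor PD-1 of activated and exhausted T cells, was at 9.26 and 4.68 CPM against 6.93 and 4.41 CPM. Tigit, another inhibitory receptor, was the scarcest T cell member in CPM, with 36 to 70 reads in each sample. Cd27, a costimulatory receptor of naive and memory cells, was at 7.39 and 4.84 CPM against 4.23 and 6.24 CPM. The groups overlapped for all 4 of these genes, and their log2 fold changes lay between -0.32 and -0.05.

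B cell genes were nearly level between the groups. Cd79a was at 14.2 and 9.52 CPM in the K-Ras samples and at 10.2 and 9.99 CPM in the K-Ras Mll4-/- samples. Cd79b was at 21.5 and 14.4 CPM against 16.2 and 20.0 CPM. Ms4a1, the gene of the B cell surface antigen CD20, was at 8.27 and 5.84 CPM against 8.68 and 8.44 CPM, with both K-Ras Mll4-/- samples slightly above both K-Ras samples (log2 fold change 0.28, SE 0.26, edgeR adjusted p = 0.565). Pax5 was at 3.60 and 2.38 CPM against 3.85 and 3.26 CPM. The order of the K-Ras samples for these genes was that of the T cell genes.

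Cr2, Fcer2a, Cd22 and Blk spread to different degrees between the K-Ras samples, from 1.33-fold for Cr2 to 2.46-fold for Cd22. Cr2, complement receptor 2 of follicular and marginal zone B cells, was at 6.97 and 5.23 CPM in K-Ras and 6.55 and 8.72 CPM in K-Ras Mll4-/- tumours. Fcer2a, the low-affinity IgE receptor CD23, was at 13.1 and 8.38 CPM against 6.51 and 8.47 CPM (log2 fold change -0.52, SE 0.31, edgeR adjusted p = 0.383). Cd22, an inhibitory lectin receptor, had the widest range of the B cell members, at 34.9 and 14.2 CPM against 33.0 and 21.8 CPM. Blk, a Src-family kinase of B cells, was at 7.13 and 4.18 CPM against 5.79 and 4.995 CPM. The groups overlapped for all 4.

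Pou2af1 had the lowest p-value of the B-lineage members and was the only 1 of the 9 that was lower in both K-Ras Mll4-/- samples. Of the 22 other B cell genes, 3 were lower in both (Tnfrsf13b, Cd40 and Blnk, log2 fold changes -0.70, -0.48 and -0.35). Another 3 were higher in both (Ly6d, H2-Oa and Fcmr, 1.69, 0.58 and 0.43). Over all tested genes, 28.5% were lower and 29.9% higher in both. These B cell genes are named for their order of samples. Pou2af1 encodes a coactivator of octamer-binding factors that is needed for germinal centres and is kept on in antibody-secreting cells. It was at 23.2 and 20.5 CPM in the K-Ras samples and at 14.1 and 13.5 CPM in the K-Ras Mll4-/- samples, or 710 and 740 reads against 370 and 436, so the groups did not overlap. The means were 21.9 ± 1.94 and 13.8 ± 0.399 CPM (SD, n = 2 each). Its log2 fold change of -0.66 (SE 0.16) had the lowest p-value of the 34 members, 0.0111 unadjusted, and was not called (edgeR adjusted p = 0.166; DESeq2 adjusted p = 0.0634). It lay between -0.76 and -0.56 when single samples were left out, and adjusted p ran from 0.0634 to 0.772 over all alternatives.

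Markers of plasma cells had the same order of samples as Pou2af1. Jchain, which links antibody polymers, was at 386 and 274 CPM in the K-Ras samples and at 194 and 107 CPM in the K-Ras Mll4-/- samples. Mzb1, a chaperone of antibody secretion, was at 9.71 and 6.84 CPM against 3.50 and 3.20 CPM. Tnfrsf17, the survival receptor BCMA of plasma cells, had 41 and 31 reads against 9 and 7. The log2 fold changes of Jchain, Mzb1 and Tnfrsf17 were -1.13, -1.30 and -1.97, with edgeR adjusted p-values of 0.198, 0.157 and 0.177, so none was called. The fourth listed marker, Sdc1, which epithelial cells also express, went the other way, at 431 and 577 CPM in K-Ras and 1009 and 1461 CPM in K-Ras Mll4-/- tumours. Against the pan-B-lineage gene Cd79a, Mzb1 had 68.6 and 71.8 reads per 100 in K-Ras samples and 34.2 and 32.0 in K-Ras Mll4-/- samples. On the same scale Ms4a1, which plasma cells switch off, had 58.4 and 61.3 against 84.8 and 84.5. Not every B cell member went that way. Fcer2a was lower relative to Cd79a in both K-Ras Mll4-/- samples. It had 400 and 303 reads against 171 and 273, where Cd79a had 433 and 344 against 269 and 322. The part of plasma cells in the Pou2af1 values was not tested.

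**Figure D5:**
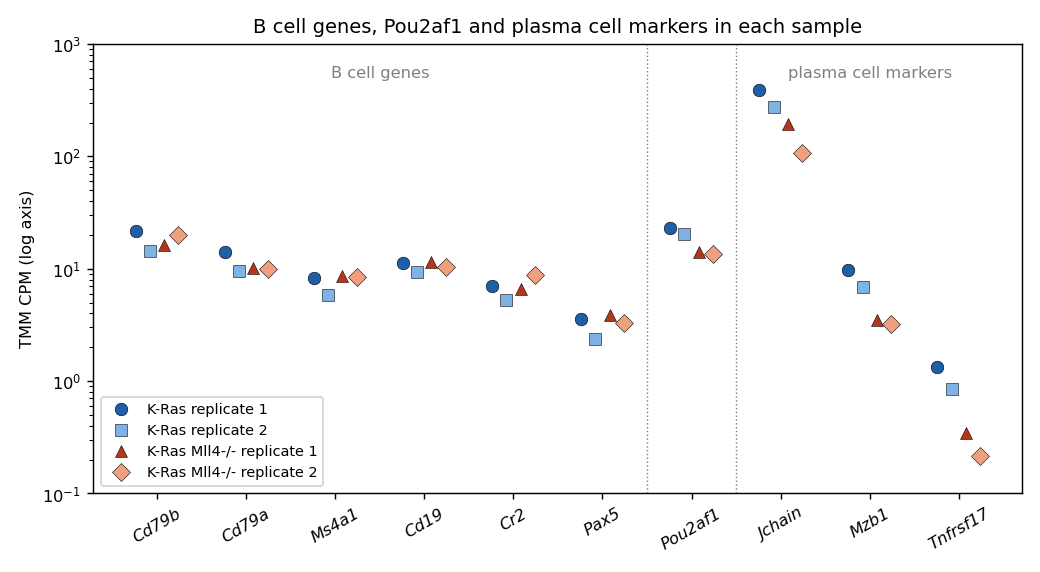
Levels of 6 B cell genes, Pou2af1 and 3 plasma cell markers in each sample, as TMM-normalised CPM on a log axis; each marker is 1 sample. The B cell genes drawn overlap or nearly overlap between groups. Pou2af1 (23.2 and 20.5 against 14.1 and 13.5), Jchain, Mzb1 and Tnfrsf17 are above in both K-Ras samples. Sdc1, the fourth listed plasma cell marker, is not drawn and went the other way (431 and 577 against 1009 and 1461). B cell genes of the other list that were lower or higher in both K-Ras Mll4-/- samples are not drawn either.

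The 5 NK cell genes were scarce and even. Their counts ran from 46 to 114 reads, which were above the floor in every sample. Ncr1, the NK activating receptor NKp46, was at 2.58 and 2.19 CPM in the K-Ras samples and at 1.87 and 2.05 CPM in the K-Ras Mll4-/- samples. Klrb1c, the mouse antigen NK1.1, was at 3.21 and 3.16 CPM against 2.59 and 2.98 CPM. Klrd1, the CD94 partner of the NKG2 receptors, was at 2.19 and 2.21 CPM against 2.93 and 2.51 CPM. Groups did not overlap for these 3 genes, yet the differences were at most 0.30 on the log2 scale, under the standard errors of 0.29 to 0.33. Eomes and Tbx21 (T-bet) overlapped, with log2 fold changes of -0.14 (SE 0.36) and 0.09 (SE 0.31). The 5 NK cell genes differed by at most 1.20-fold between the K-Ras samples, a range that the T cell members Cd8b1 and Cd28 shared.

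Another 76 lymphocyte genes were examined by lists of T, B and NK cell genes outside the members, and 74 passed the count filter. None was called by the edgeR quasi-likelihood test, and 5 had an unadjusted p under 0.05, all with higher values in K-Ras Mll4-/- tumours and all in the NK list, beside 11.4% of all tested genes that had such a p with higher values. DESeq2 called 4 (Itga2, Klrc1, Ly6d and Styk1; 10.4% of all genes), the edgeR likelihood ratio test 3 (9.39%) and limma-voom 0 (0%). The median log2 fold change was -0.03 over the T list, 0.11 over the B list and 0.08 over the NK list. K-Ras replicate 1 was highest for 22 of the 32 T list genes and K-Ras replicate 2 lowest for 22, as for the members.

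In the NK list, Itga2, an integrin chain that epithelial cells also carry, was at 102 and 107 CPM in K-Ras and 295 and 388 CPM in K-Ras Mll4-/- tumours (log2 fold change 1.71, SE 0.19, edgeR adjusted p = 0.117). Styk1, a pseudokinase gene, was at 1.05 and 1.63 CPM against 7.54 and 9.28 CPM (log2 fold change 2.64, SE 0.35, edgeR adjusted p = 0.128). With Itga2 at up to 12519 reads in a sample where each NK member had under 100, its level did not follow the NK members. Of 4 epithelial markers, Krt8 (829 and 727 CPM against 215 and 371 CPM) and Epcam were also above in both K-Ras Mll4-/- samples, and Sftpc and Nkx2-1 overlapped. The summed level of the 4 was 6203 and 11310 CPM in K-Ras and 8799 and 6773 CPM in K-Ras Mll4-/- samples, and their part in the result was not tested. Klrc1, the NKG2A receptor of NK and cytotoxic T cells, was at 1.67 and 1.91 CPM in K-Ras and 3.66 and 6.67 CPM in K-Ras Mll4-/- tumours (log2 fold change 1.53, SE 0.41, edgeR adjusted p = 0.177). Il18rap, a chain of the interleukin-18 receptor, was at 50.6 and 29.6 CPM against 62.8 and 85.5 CPM.

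Genes shared by cytotoxic T and NK cells gave mixed values, and those named in this paragraph were chosen after their values were seen. Nkg7, a granule protein gene, was at 3.73 and 4.12 CPM in K-Ras and 7.05 and 7.48 CPM in K-Ras Mll4-/- tumours (log2 fold change 0.89, SE 0.24, edgeR adjusted p = 0.177). Klrk1, the activating receptor NKG2D, was at 5.43 and 4.68 CPM against 7.58 and 7.79 CPM. The groups did not overlap for either gene, as for the CD8 chains. Gzma and Gzmb, granzyme genes, and Prf1, the perforin gene, had log2 fold changes of 0.44, -0.02 and -0.26, so these 3 genes did not share one direction. Some genes of activated T and NK cells, but not all of those looked at, stood out in K-Ras replicate 1. Il2ra, the CD25 chain, was at 28.4 CPM there and at 6.01 to 9.33 CPM elsewhere, Tnfrsf4 (OX40) at 18.3 CPM against 5.09 to 7.20 CPM, and Klrg1, from the NK list, at 9.06 CPM against 1.25 to 2.23 CPM. The inhibitory receptor gene Lag3 was nearly level across samples (1.86 CPM there against 1.99 to 2.10 CPM, or 57 reads against 55 to 72). Havcr2, the TIM-3 gene, was at 29.0 CPM there and 8.69 CPM in K-Ras replicate 2, against 31.7 and 14.3 CPM in the K-Ras Mll4-/- samples.

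In the T list the lowest p-values were those of Btla, an inhibitory receptor of T and B cells, Gata3, a transcription factor of type 2 helper T and innate lymphoid cells, and Prkcq, a kinase of the T cell receptor pathway. Btla was at 26.2 and 18.5 CPM in K-Ras and 14.1 and 15.6 CPM in K-Ras Mll4-/- tumours (log2 fold change -0.59, edgeR adjusted p = 0.235). Gata3 and Prkcq had log2 fold changes of -0.60 and -0.35. The most abundant genes of the list were Thy1, a surface protein of T cells that fibroblasts also carry (28.9 and 16.1 CPM against 35.3 and 38.0 CPM), and Ikzf2, the Helios factor (38.0 and 17.6 CPM against 26.7 and 28.8 CPM). In the B list, Ly6d, a B lineage surface protein that epithelia also express, was at 12.7 and 19.5 CPM against 81.5 and 22.7 CPM. One K-Ras Mll4-/- sample, replicate 1, held that high value. Cd40, a receptor for T cell help, was at 12.5 and 10.7 CPM against 8.23 and 8.38 CPM, and Vpreb3, a pre-B cell gene, had 36 and 108 reads against 32 and 20. Ciita, the regulator of antigen presentation genes, was at 87.5 and 133 CPM against 109 and 97.4 CPM.

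Several members share exonic sequence with another gene on the GENCODE M21 annotation, among them Cd247 with Pou2f1 and Foxp3 with Ccdc22 and Ppp1r3f, all on the opposite strand. Whether the authors' counting used strand is not given in the sources used here, so the counts of Cd247 and Foxp3 are uncertain to that extent. T cell receptor and immunoglobulin genes were not analysed here.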

How the data were processed

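The authors deposited raw read counts per gene for each sample, laid out as HTSeq output. The submitters' processing notes name CASAVA 1.4, STAR, HTSeq and mm9. The annotation and strand setting are not given in the sources used here. The 5 closing tallies of each file name no gene and were left out: they held 16302677 to 27514105 reads outside genes, 217188 to 270339 in overlapping genes and 23060509 to 36065092 with more than 1 alignment, among others, beside 26683033 to 36677987 gene-assigned reads.

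Groups came from the sample titles. Library sizes were adjusted with TMM (trimmed mean of M values), low counts were filtered with filterByExpr, and the 16001 remaining genes were tested together with the robust edgeR 4.0.16 quasi-likelihood test in R 4.3.3 (Benjamini-Hochberg, called at an adjusted p under 0.05). CPM values use the TMM-adjusted library sizes over the tested genes. Alternatives used DESeq2 1.42.0, limma 3.58.1 (voom), other scalings and filters, a replicate block and each sample left out. The fits were tested on simulated counts. Lengths came from GENCODE M21 and promoters from RefSeq (GRCm38.p6), matched by symbol. The chi-square statistic per gene between replicates was 48.7 and 129, so none was a repeat count of 1 library.

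Members and gene lists were chosen with earlier results of these data known. All members could be named. Of other lists, the 3 genes with the smallest p and the 2 most abundant were named, with exceptions stated. Marker lists for mast cells, endothelium and fibroblasts were also measured. Summed Kit, Cpa3, Mcpt4 and Cma1 were at 228 and 261 CPM in K-Ras and 127 and 111 in K-Ras Mll4-/- samples. Kit made up nearly all of that sum (226.3 and 258.1 against 122.5 and 108.9 CPM). Mcpt4 went the other way (0.654 and 0.553 against 2.78 and 1.02 CPM), and Cpa3 and Cma1 overlapped. Summed Pecam1, Cdh5 and Kdr were at 2973 and 3075 against 2231 and 1747 CPM, and summed Col1a1, Pdgfra and Dcn at 808 and 415 against 287 and 301 CPM.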

Additional observations from a re-analysis of the deposited data

How the results depend on the processing

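No member was called by any fit except DESeq2, which called 1 (Cd8a). Against 6 genes called in all, the filter at 1 count gave 44, DESeq2 1601, limma-voom 0, the likelihood ratio test 1503 and the replicate block 217. Leaving out single samples gave 0 to 528, the latter without K-Ras replicate 1. Of the other lymphocyte genes, DESeq2 called 4, the likelihood ratio test 3 and the replicate block 2 (Itga2 and Styk1). The labels do not say whether same-numbered samples are paired. Deviations of same-numbered samples from their group means correlated at 0.24. The block changed no member's call, but no member was called without it, so this cannot decide on pairing. The T cell sum ranged from -0.68 to 0.45 (log2) and the B cell sum from -0.38 to 0.27 on leaving out 1 sample. The NK cell sum was -0.17 per Ptprc read against -0.04 in CPM. Of 476 values under other settings of the 34 members, 45 changed sign, 31 of them on leaving out a sample (14 without K-Ras replicate 1). For 12 members none did. With limma-voom the sign changed for Cd3d (0.05), Lck (0.04), Cd2 (0.09), Cd5 (0.12), Lat (0.08) and Tigit (0.09). With the replicate block it changed for Cd3d (0.02), Lck (0.01), Cd2 (0.06), Cd5 (0.09), Lat (0.05) and Tigit (0.06). Total-count and upper-quartile scaling each turned Cd79b to -0.05. Ranges with single samples left out were -0.20 to 0.68 (Cd3e), -0.55 to 0.60 (Cd3d), -0.15 to 1.04 (Cd3g), -0.58 to 0.36 (Cd247), -0.36 to 0.79 (Cd4), -0.60 to 0.62 (Lck), -0.73 to 0.88 (Cd2), -0.55 to 0.73 (Cd5), -1.44 to 0.68 (Icos), -0.72 to 0.28 (Pdcd1), -1.60 to 0.17 (Foxp3), -0.70 to 0.16 (Il7r), -0.48 to 0.58 (Lat), -0.54 to 0.12 (Cd27), -0.54 to 0.67 (Tigit), -0.50 to 0.09 (Cd79a), -0.26 to 0.33 (Cd79b), -0.03 to 0.58 (Pax5), -0.42 to 0.37 (Blk), -0.36 to 0.95 (Cd22), -0.42 to 0.09 (Eomes) and -0.03 to 0.20 (Tbx21). The cause was not tested. At these depths a member with 36 reads carries a large counting error, and 2 samples a group limit every test.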
